A study of Danio rerio with 6 samples.

Results

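The miR-15, miR-16 and miR-457 microRNAs were followed in zebrafish primordial germ cells, the embryonic precursors of eggs and sperm. Members were chosen by name: any row of the deposited microRNA table called miR-15, miR-16 or miR-457, whichever arm of the hairpin it came from. This gave 6 of the 134 mature microRNAs listed, namely miR-15b-3p, miR-15c, miR-16b, miR-16c-3p, miR-16c-5p and miR-457b-5p. The cells came from the AB strain, carry the tissue label gonad, and had been picked by green fluorescence at the shield, 3-somite and prim-5 stages, which are 6, 11 and 24 hours post fertilization (hpf). Each stage had 2 libraries, the labels of the groups differ only in stage, and no treatment or mutation is named. The transgene or injected RNA behind the fluorescence, and whether each library had its own clutch of embryos, are not stated in these sources. The p-values therefore set stage differences only against the variation between these libraries, and that variation may be technical.

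A microRNA hairpin is cut into a duplex of a 5p and a 3p arm, and usually one arm is kept as the guide that finds target mRNAs by its seed, the bases near its 5′ end. The miR-15 and miR-16 family shares the seed core AGCAGC on its 5p arms and is known in mammals for repressing BCL2, which blocks cell death, and cyclins, which drive the cell cycle. The human miR-15a and miR-16 locus is often deleted in chronic lymphocytic leukaemia, and in Xenopus embryos the family limits the Nodal receptor Acvr2a. The 3p arms of these hairpins are usually the passenger strands and carry other seeds.

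The 6 sequences are shown as the deposited table gives them, 5′ to 3′ and with T for U, with the seed (bases 2 to 8) in capitals, because the members fall into groups by it.
miR-16b: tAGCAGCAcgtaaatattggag
miR-16c-5p: tAGCAGCAtgtaaatattggag
miR-457b-5p: aAGCAGCAcataaatactggag
miR-15c: aAGCAGCGcgtcatggttttc
miR-15b-3p: cGAATCATgatgtgctgtcact
miR-16c-3p: tCCAATATtgctcgtgctgctga

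The hexamer AGCAGC stood at bases 2 to 7 in 4 members and in no other of the 134 microRNAs, a share of 2.99%. The full seed AGCAGCA was shared by miR-16b, miR-16c-5p and miR-457b-5p, while miR-15c differed from miR-16b at the last seed base (A8G, counted from 1 at the 5′ end). miR-16b and miR-16c-5p differed by a single substitution, C9T, which lies outside the seed. miR-457b-5p differed from miR-16b by T1A, G10A and T17C. An edit distance of 1 makes the division of reads between miR-16b and miR-16c-5p uncertain, since the sources used here do not state how reads matching several names were counted. No microRNA outside the family was closer than an edit distance of 7 to any member. The 3p arms had seeds found nowhere else in the table. miR-16c-3p was predicted by RNAduplex to form 19 base pairs with its partner arm miR-16c-5p, and also 19 with miR-16b.

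In the RefSeq gene table of the GRCz12tu assembly, 4 of the 5 genes behind these microRNAs had another microRNA gene of the extended family starting within 1000 bases. mir15b lay beside mir457a, mir15c beside mir16a, mir16b beside mir15a-1 and mir16c beside mir15a-2. The nearest microRNA gene to mir457b was mir18c, which lay farther away. Mature forms of these family neighbours, and the other names of the extended family searched for (among them miR-15a, miR-16a, miR-457a, miR-195 and miR-497), were not analysed here.

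The 6 libraries held 35718 to 78973 microRNA reads, and a count of 0 allowed up to 3 reads, or 0.141 to 0.333 RPM (the authors' reads scaled to a fixed library total), depending on the library. The RPM values divide each count by a total of 9019179 to 21230244 reads. miR-430, the family that removes maternal mRNAs, made up between 87.6% and 90.6% of all microRNA reads in the earliest libraries, 80.2% and 84.6% in the middle pair, and 73.7% and 65.4% in the latest. This left 4429 to 27293 reads for all other microRNAs, and the 24 hpf libraries were the deepest outside miR-430. Intervals, floors and folds against a floor cover counting error only, and counting error here means that of independent reads. PCR copies of a molecule are not independent, so the true counting error may be wider.

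The family was a minor one in these cells, and different members were read at different stages. Its 6 members together had 112 and 69 reads at the first stage (6 hpf), 0 and 120 at the second (11 hpf), and 113 and 191 at the last (24 hpf). As a share of microRNA reads this was, in stage order, 0.211% ± 0.145 (SD, n = 2), 0.124% ± 0.176 and 0.205% ± 0.0515, and the libraries of the 3 stages overlapped. Of reads outside miR-430 it was 2.53% and 1.15% at 6 hpf, 0% and 1.62% at 11 hpf, and 0.642% and 0.700% at 24 hpf, so on this scale the 6 hpf pair was higher than the 24 hpf pair without overlap. The first 11 hpf library had no read of any member, which allowed a share of up to 0.00662% (3 reads), against 0.249% (exact 95% interval 0.206% to 0.298%) in the second. This difference within 1 stage exceeded counting error and was wider than the difference between the stage means.

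**Figure D1:**
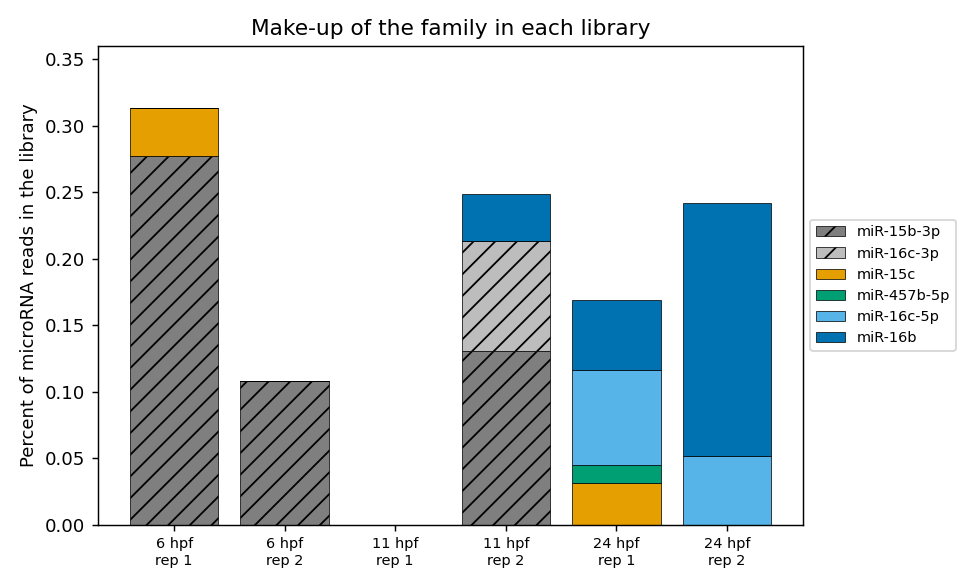
Percent of microRNA reads held by each of the 6 members (stacked, hatched for 3p arms) in each of the 6 libraries. Reads at 6 hpf came mostly from miR-15b-3p, and 11 hpf replicate 1 had none. Those at 24 hpf came from the 4 members with AGCAGC in replicate 1, and from miR-16b and miR-16c-5p in replicate 2.

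The 4 members with the AGCAGC core, the usual guide arms of such hairpins, had 13 and 0 reads in the 6 hpf pair, then 0 and 17 in the 11 hpf pair, and finally 113 and 191 in the 24 hpf pair. Both 24 hpf libraries thus lay above all 4 earlier ones, and these members made up 0.0182% ± 0.0257 (SD, n = 2), 0.0176% ± 0.0249 and 0.205% ± 0.0515 of microRNA reads. Counted among reads outside the miR-430 family, the shares were 0.147% ± 0.208, 0.115% ± 0.162 and 0.671% ± 0.0409 (SD, n = 2), and again both 24 hpf libraries were the highest. The 3p arms together had 99 and 69 reads at 6 hpf, 0 and 103 at 11 hpf, and none at 24 hpf. Their 6 hpf reads were all of miR-15b-3p, and miR-16c-3p was read at 11 hpf only. Members with the core supplied 11.6% and 0% of the family's reads at 6 hpf, 14.2% in the 11 hpf library that had any, and 100% in both 24 hpf libraries. No test was made on these sums, since the members were chosen with earlier results of these data known.

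Which arm acted as guide in these cells was not tested. Among the 4 members with AGCAGC, miR-16b had the most reads. Its reads numbered 0 and 0 (6 hpf), 0 and 17 (11 hpf), then 35 and 150 (24 hpf), which is 0, 0, 0, 1.88, 2.99 and 7.07 RPM in that order. Both 24 hpf libraries lay above the other 4, but they differed 2.36-fold from each other in RPM. Against a floor of 3 reads over the 6 hpf stage, miR-16b was at least 18.3-fold higher at 24 hpf with TMM scaling, a scaling by the trimmed mean of ratios between libraries, and at least 42.3-fold with the authors' totals. Against 11 hpf the ratio was 4.97 (95% counting interval 3.02 to 8.72), or 7.70 with the authors' totals, and it rested on reads in 1 of the 2 libraries at 11 hpf. Neither difference passed (edgeR adjusted p = 0.181 against 6 hpf and 0.661 against 11 hpf). Its 24 hpf reads were also needed for it to reach the filter on low counts, which asks for enough reads in at least 2 libraries.

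miR-16c-5p, which shares the whole seed of miR-16b, was read at 24 hpf only. It had 48 and 41 reads there, or 4.098 and 1.93 RPM, and 0 in each of the 4 earlier libraries. It was at least 8.81-fold higher at 24 than at 6 hpf and at least 13.6-fold higher than at 11 hpf with TMM scaling, or at least 20.4-fold and 21.0-fold with the authors' totals. It came closest of the members to the threshold, with edgeR adjusted p = 0.0531 at 24 against 6 hpf and 0.0848 at 24 against 11 hpf. However, its 24 hpf reads alone took it past the filter on low counts. With no filter the edgeR adjusted p was 0.262 and 0.416. Of the 134 microRNAs, 8 had reads in both 24 hpf libraries and none earlier, and 17 had reads in both 24 hpf libraries and none at 6 hpf, among them miR-16b and miR-16c-5p. How reads matching both miR-16b and miR-16c-5p were divided is not stated. Their proportion differed between the 24 hpf libraries by more than counting error. miR-16b made up 42.2% (exact 95% interval 31.4% to 53.5%) of their joint reads in the first 24 hpf library and 78.5% (interval from 72.03% to 84.1%) in the second, and these intervals do not overlap.

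The other members with AGCAGC were rarer and each appeared in 1 library of a stage. For miR-15c the reads were 13 and 0 (6 hpf), 0 and 0 (11 hpf), then 21 and 0 (24 hpf), or 1.24 RPM and 1.79 RPM in the first libraries of these stages. Its ratio of 24 to 6 hpf was 0.479 (95% counting interval 0.229 to 1.04) with TMM scaling and 1.11 with the authors' totals, so the direction depended on the scaling, and it did not pass (edgeR adjusted p = 0.815). miR-457b-5p had 9 reads, or 0.768 RPM, in the first 24 hpf library and 0 in the other 5. It did not reach the filter on low counts and was not tested.

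Of the 3p arms, miR-15b-3p was the most abundant member early on. Its reads numbered 99 and 69 (6 hpf), 0 and 63 (11 hpf), then 0 and 0 (24 hpf), which is 9.44 and 5.69 RPM, 0 and 6.99 RPM, and 0 RPM. It ranked 18 of 71 and 21 of 73 among the microRNAs detected in the 6 hpf libraries. Both 6 hpf libraries lay far above both 24 hpf libraries, and the second 11 hpf library lay between the 6 hpf libraries on the RPM scale. At 24 hpf it was at least 189-fold lower than at 6 hpf with TMM scaling and at least 81.6-fold lower with the authors' totals, but it did not pass (edgeR adjusted p = 0.138). Its 0 and 63 reads at 11 hpf show that a 0 in these libraries can exceed counting error, so no such fold is a firm bound. Of the 134 microRNAs, 59 had reads in both 6 hpf libraries. Of these, 2 (1.49% of the 134) had none at 24 hpf, miR-15b-3p and miR-92a-2-5p. This pattern was taken from miR-15b-3p itself. The 5p arm of the same hairpin was not analysed here.

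miR-16c-3p was read in a single library, with 40 reads (4.43 RPM) in the second 11 hpf library and 0 in the other 5. Its partner arm had 0 reads in that library, so the 5p arm supplied 0 of 40 reads of the hairpin (exact 95% interval 0% to 8.81%). At 24 hpf the 5p arm supplied 48 of 48 reads (92.6% to 100%) in the first library and 41 of 41 (91.4% to 100%) in the second. In no library were both arms of miR-16c counted. The only library with the 3p arm also had 17 reads of miR-16b, which differs from miR-16c-5p by a single base. The division of reads between miR-16b and miR-16c-5p is uncertain, and the interval of the 5p share does not cover this. miR-16c-3p was not tested, because the filter on low counts asks for enough reads in at least 2 libraries.

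**Figure D2:**
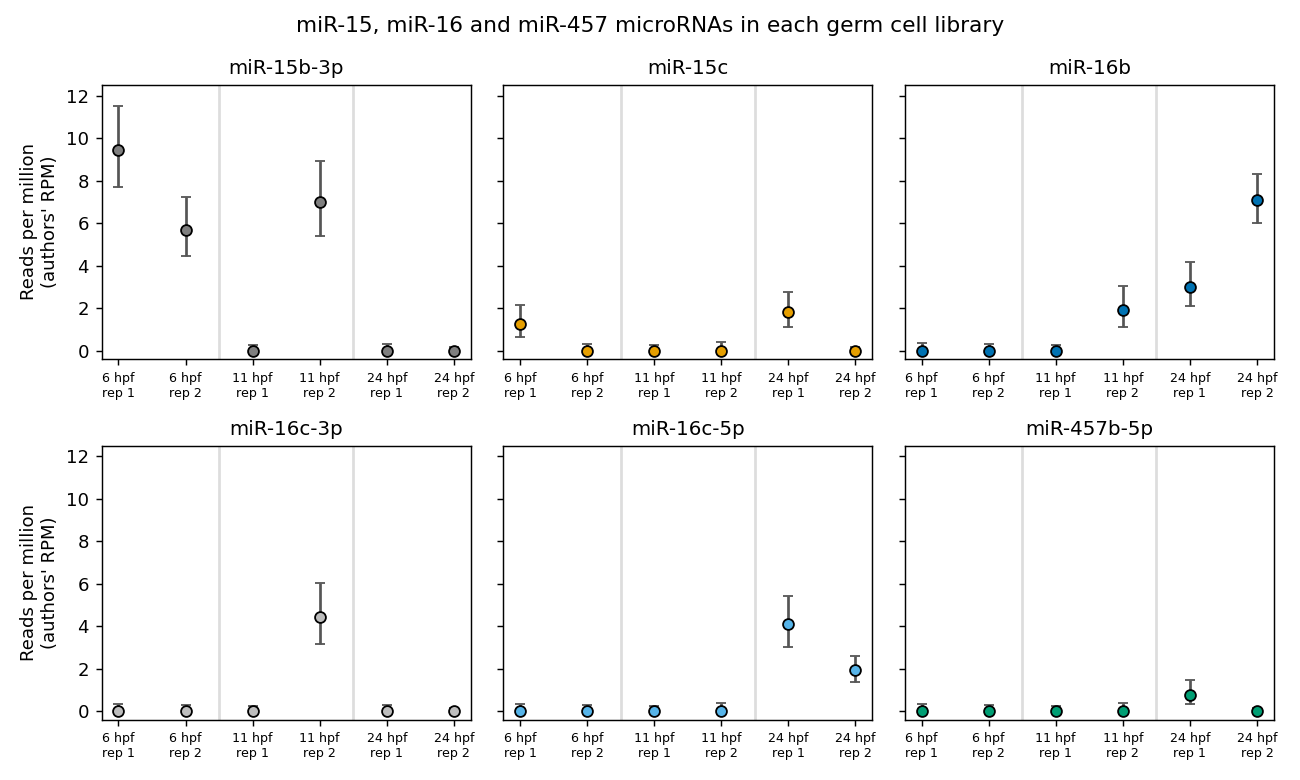
Level of each member in each library in the authors' RPM, with exact 95% Poisson intervals for counting error and grey lines between stages. miR-15b-3p stands at 9.44 and 5.69 at 6 hpf and 0 at 24 hpf, while miR-16b and miR-16c-5p are above 0 in both 24 hpf libraries.

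Members were often read in 1 library of a stage only. Each member has a pair of libraries at each stage, which gives 18 cases. Reads were present in both libraries in 3 of them (miR-15b-3p at 6 hpf, miR-16b and miR-16c-5p at 24 hpf), in 1 library in 6, and in none in 9, while over all microRNAs reads were in 1 library in 97 of 402 cases. The 6 single-library cases were miR-15c at 6 hpf, miR-15b-3p, miR-16b and miR-16c-3p at 11 hpf, and miR-15c and miR-457b-5p at 24 hpf. All 3 cases at 11 hpf fell in the second library, and the cases at 6 and 24 hpf fell in the first.

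Among cases with at least 10 reads in the higher library, the other library had 0 in 5 of 8 for the family and in 50 of 208 (24.0%) over all microRNAs. Where the higher library had between 10 and 150 reads, the most any member reached, the share over all microRNAs was 50 of 147 (34.0%). At 11 hpf, 13 microRNAs had at least 10 reads in the second library and 0 in the first, and 7 the reverse, so zeros against sizeable counts occurred on both sides. At 24 hpf the corresponding numbers were 7 and 16.

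**Figure D3:**
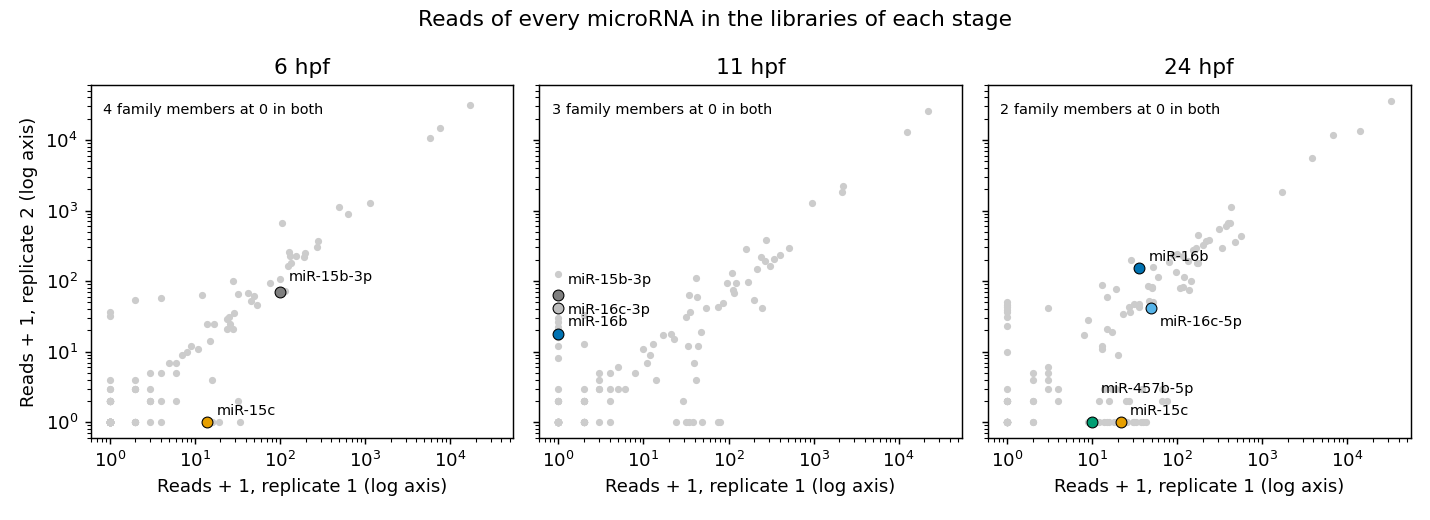
Reads plus 1 of all 134 microRNAs in the first and second library of each stage, on log axes, with family members coloured and named where they had reads. Members on an edge were read in 1 library only, as were all 3 members seen at 11 hpf.

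The test across all microRNAs was made on 69 of the 134. These reached a minimum count of 10, scaled for depth, in at least 2 libraries, and 4 of the 6 members were among them. The test was edgeR's quasi-likelihood test on the 6 libraries, with p adjusted over the 69 by Benjamini-Hochberg and 0.05 as threshold. Between 6 and 11 hpf, 0 of the 4 tested members passed, against 5.8% of the 69, and 0 had an unadjusted edgeR p under 0.05, a level that 9 of the 69 reached. Between 11 and 24 hpf again 0 of 4 passed, against 0% of the 69, of which 14 had an unadjusted edgeR p under 0.05. Of the members, miR-16c-5p alone had an unadjusted p under 0.05. Between 6 and 24 hpf 0 of 4 passed, against 17.4% of the 69, and miR-16c-5p was the 1 member with an unadjusted p under 0.05, beside 24 of the 69. DESeq2 called 0, 0 and 1 member in these comparisons, the last being miR-15b-3p, lower at 24 hpf (DESeq2 adjusted p = 0.0092). Over the 69 it called 10.1%, 4.35% and 27.5%, counting any without an adjusted p as not called. In the last comparison it gave no adjusted p for miR-15c and miR-16c-5p, so only miR-15b-3p and miR-16b could be called. The unadjusted DESeq2 p of miR-16c-5p there was 0.148.

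The libraries of 6 and 24 hpf did not overlap for 3 of the 4 tested members, miR-16b and miR-16c-5p higher and miR-15b-3p lower at 24 hpf, beside 68.1% of the 69 tested microRNAs (31.9% higher and 36.2% lower). Between 11 and 24 hpf 2 of 4 did not overlap, both higher, beside 46.4% (26.1% higher). Between 6 and 11 hpf it was 1 of 4, miR-15b-3p lower on the TMM scale, beside 39.1% (20.3% lower), and on the authors' RPM scale its libraries did overlap. The members' shares were thus near the background. miR-16c-5p reached the filter through its 24 hpf reads alone, and miR-16b could not have reached it without its 24 hpf reads. Both had 0 reads at 6 hpf, so their lack of overlap between 6 and 24 hpf is no separate support for a rise.

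The 24 against 6 hpf calls changed when 11 hpf libraries were left out, and the cause was not tested. Fits of all 6 libraries with library size only, without the miR-430 family or by DESeq2 also called 1 member each. Over all tested microRNAs these fits called 16 of 69, 11 of 58 and 19 of 69. Without 11 hpf replicate 2, miR-15b-3p, miR-16b and miR-16c-5p all passed (edgeR adjusted p = 0.0202, 0.0473 and 0.0325), and without 11 hpf replicate 1 miR-15b-3p and miR-16c-5p did (0.0293 and 0.0446). These settings called 34.8% and 40.6% of all 69 microRNAs, in place of 17.4%. With only the libraries of 6 and 24 hpf in the fit, the same pair passed (0.0306 and 0.0476), beside 40.6% of the 69. Calls thus rose over the whole table in these settings. Over all alternatives that gave a value, miR-16c-5p was called in 5 of 15, miR-15b-3p in 4 of 16, miR-16b in 1 of 16 and miR-15c in 0 of 13. Adjusted p over these alternatives ranged from 0.0325 to 0.333 for miR-16c-5p, from 0.0092 to 0.318 for miR-15b-3p and from 0.0473 to 0.394 for miR-16b. Leaving out any 6 or 24 hpf library gave 0 members called.

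**Figure D4:**
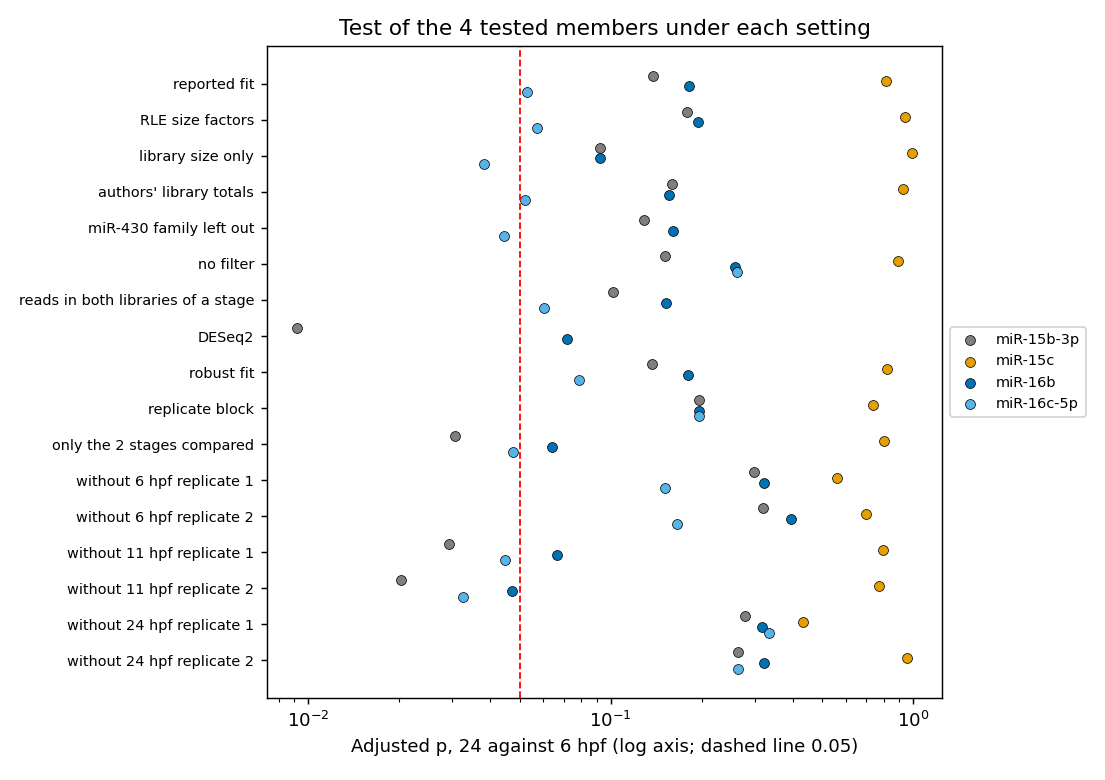
Adjusted p of the 4 tested members for 24 against 6 hpf (log axis) in the reported fit and under each alternative, with a dashed line at 0.05. miR-16c-5p lies just right of the line in the reported fit at 0.0531, and miR-15c is far from it in every setting shown.

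microRNAs of similar pattern were sought by Pearson r of log2 scaled counts over the 6 libraries, as a description. miR-16c-5p was most like miR-10c-5p of the Hox clusters (r rounds to 1; 0 reads before 24 hpf, then 107 and 79), miR-210-5p of the hypoxia-responsive miR-210 hairpin (r = 0.99) and the muscle microRNA miR-206-3p (r = 0.99). miR-16b was most like miR-125a (r = 0.97), let-7g (r = 0.96) and miR-2189 (r = 0.94), all with more reads in the second than the first 11 hpf library. let-7g counted 0 and 127 reads in the 11 hpf pair, then 336 and 297. miR-15b-3p was most like miR-130c-5p (r = 0.84), miR-430i-5p (r = 0.83) and miR-430a-3p (r = 0.81). miR-15c was most like miR-125b-5p (r = 0.70), miR-724 (r = 0.58) and miR-181a-5p (r = 0.56). These r values rest on libraries that share depth and the same zeros.

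Other microRNAs known in vertebrates to repress cyclins, CDKs or E2F, the activity best known for this family, were read from a list of let-7, miR-26, miR-29, miR-34, miR-101, miR-103, miR-107, miR-143, miR-145, miR-203 and miR-449. Matching was by name and took either arm, so not every entry is itself a known repressor. The table held 21 entries, among them let-7c-3p, let-7d-3p, miR-26a-3p, miR-26a-2-3p and miR-145-3p. Of the 21, 14 were tested, including miR-26a-3p and miR-145-3p. Between 6 and 11 hpf, and between 11 and 24 hpf, 0 passed in edgeR's quasi-likelihood test, with 1 and 4 at an unadjusted p under 0.05, while DESeq2 called 1 each time. Over the 69, the corresponding numbers were 9 and 14 at an unadjusted p under 0.05, and 7 and 3 by DESeq2. Between 6 and 24 hpf miR-26a-5p rose (log2 difference 1.87, SE 0.14, edgeR adjusted p = 0.0047). let-7f fell by 1.36 (SE 0.28, edgeR adjusted p = 0.0453) and let-7i fell by 1.53 (SE 0.26, edgeR adjusted p = 0.0391). The other 11 did not pass, so that 3 of 14 passed beside 12 of the 69. At an unadjusted edgeR p under 0.05 were 7 of the list beside 24 of the 69, and DESeq2 called 5 beside 19. With the authors' totals for scaling let-7f stood at -0.13 and let-7i at -0.31, and with library size only at -0.24 and -0.39, none passing. Neither passed with miR-430 left out, no filter, reads required in both libraries of a stage, the robust fit or the replicate block. Leaving out either 6 hpf or either 24 hpf library also ended both calls. Of the alternatives on all 6 libraries, both passed with RLE size factors and with DESeq2 only. miR-26a-5p did not pass without 6 hpf replicate 2 or without 24 hpf replicate 2 (edgeR adjusted p = 0.139 and 0.0561; range over all alternatives 3.1e-33, by DESeq2, to 0.139). The median log2 difference of the list, with its tested 3p arms, was -1.15 between 6 and 24 hpf, beside -0.36 over the 69. Both medians are on the TMM scale. With the authors' totals the median over the 69 was 0.88, so its sign depended on the scaling. The list median was not computed with other scalings.

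miR-103 and miR-107a-3p are of interest beside the family because they hold the same hexamer 1 base earlier, at bases 1 to 6, shown here in capitals, which gives them a shifted seed.
miR-103: AGCAGCattgtacagggctatga
miR-107a-3p: AGCAGCattgtacagggctatca

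Reads of miR-103 numbered 48 and 60, 85 and 48, then 59 and 115 over the 3 stages, and it was present in every library, including the 11 hpf library without family reads. Its log2 difference of -1.09 between 6 and 24 hpf (SE 0.40) did not pass (edgeR adjusted p = 0.134). miR-107a-3p had between 1 and 3 reads in each library and was not tested.

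microRNAs typical of other cell types were read in every library, and as a sum they were highest at 24 hpf, as were the members with AGCAGC. Of the marker names looked for, 16 microRNAs were listed, and their summed share of microRNA reads was 0.129% and 0.0673% in the 6 hpf pair, 0.249% and 0.120% in the 11 hpf pair, and 0.594% and 0.813% in the 24 hpf pair. Of reads outside miR-430 it was 1.04% and 0.716%, then 1.26% and 0.783%, then 2.26% and 2.35%. At 24 hpf the sensory-organ markers of the miR-183 cluster had 175 and 323 reads, the cartilage marker miR-140 had 98 reads in the first and more in the second, muscle markers had 59 and 77, and neural markers had 50 and 44. At 6 hpf these groups had at most 10 reads in a library. The groups did not all follow this order. Endothelial markers had 17 and 27 reads at 6 hpf, 40 and 7 at 11 hpf, then 15 and 60, and the muscle microRNA miR-1 stood at a log2 difference of -1.06 between 6 and 24 hpf (SE 0.56, edgeR adjusted p = 0.235, not passing). Markers of liver and gut were at 0 in both 24 hpf libraries. Of the 16, 6 and 8 had reads in the 6 hpf libraries, 11 and 9 at 11 hpf, and 11 and 12 at 24 hpf. No microRNA of the markers looked for defines germ cells, so the cell label itself could not be checked. The part of other cell types in the reads of miR-16b and miR-16c-5p was not tested, and fewer cells of a type cannot be told apart from less microRNA per cell.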

How the data were processed

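Small RNA libraries were prepared from picked germ cells with a microscale sequencing method, per the labels' protocols. The submitters' processing notes list Bowtie 1.0.0-5 and danRer11. The deposited table holds unnormalised read counts per mature microRNA and the authors' RPM, which equal the count times 1 constant per library. All 12 value columns were matched to samples by title.

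The count test was edgeR 4.0.16 under R 4.3.3 (filterByExpr with a minimum count of 10, TMM, quasi-likelihood fit with default options, stage as the only term, all 6 libraries). A standard error is the log2 difference divided by the square root of F. Alternatives included DESeq2 1.42.0. Exact intervals are Clopper-Pearson or Poisson at 95% (SciPy 1.17.1), and a 0 was given a floor of 3 reads per library or stage. Duplexes were predicted with RNAduplex 2.7.2. Scripts were tested on simulated data. Figures were drawn with matplotlib 3.10.9.

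The members and lists were chosen with earlier results of these data known. All members are named, with the 3 microRNAs of highest r for each tested member and called members of the cyclin list. The RefSeq tables are of another assembly, so no coordinates are given.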

Additional observations from a re-analysis of the deposited data

How the results depend on the processing

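Of the recomputed values of the 4 tested members, 151 kept their direction and side of the threshold, 10 newly passed it and 3 reversed. In 19 more the fitted difference was 0 in either fit, because no library left in either stage had reads, and none passed. The reversals were all of miR-15c at 24 against 6 hpf: 0.51 on the log2 scale with the authors' library totals, 6.15 without 6 hpf replicate 1 and 0.17 without 24 hpf replicate 2. Over the fits with a library left out, its value ranged from -6.66 to 6.15. The number of members called stayed at 0 in the 2 other comparisons under every alternative run. At 24 against 6 hpf it was 1 with library size only and 1 with the miR-430 family left out (miR-16c-5p both times), 1 with DESeq2, 2 with only the 2 stages compared, and 0 to 3 with a library left out.

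Over all tested microRNAs, the 4 calls at 11 against 6 hpf became 1 with the authors' totals, 1 without the miR-430 family, 7 with DESeq2, 0 with only the 2 stages compared, and 0 to 3 with a library left out. The 0 calls at 24 against 11 hpf became 8 with RLE size factors, 3 with the authors' totals and 3 with DESeq2. The 12 calls at 24 against 6 hpf became 19 with the authors' totals, 5 with no filter, 19 with DESeq2, 4 with the robust fit, 28 with only the 2 stages compared, and 0 to 28 with a library left out. At 24 against 6 hpf the calls were 16 of 69 with library size only and 11 of 58 without the miR-430 family. The causes were not tested. The replicate numbers are not said to pair libraries, and deviations of same-numbered libraries correlated at 0.14, -0.24 and 0.06. With the replicate block, 3, 0 and 4 microRNAs and 0 members were called.

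The family's share at 6, 11 and 24 hpf was 1.84%, 0.810% and 0.671% of reads outside miR-430, and 0.000819% and 0.000932% of the authors' totals at 6 and 24 hpf. With AGCAGC members alone it was 0.0182% at 6 hpf. Without 1 library, it ranged from 0.108% to 0.314% at 6 hpf, from 0% to 0.249% at 11 hpf and from 0.169% to 0.242% at 24 hpf. Where a member was read in a library it had 9 to 150 reads, so every value rests on low counts. Libraries of similar depth also differed. Those of 11 hpf had 45309 and 48199 microRNA reads, and 0 and 120 reads of members.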
